A study of Danio rerio with 8 samples.

Results

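The exocrine pancreas enzymes are the digestive enzymes that acinar cells of the pancreas make and release into the gut, and here they were followed in RNA of zebrafish liver. A list of 10 genes was set by symbol, and 8 of them were found, each as 1 cluster of the array, among 24127 named genes and 59300 clusters. The genes found were the trypsins prss59.1 and prss59.2, the elastases ela2, ela2l and ela3l, the carboxypeptidases cpa1 and cpb1, and the amylase amy2a. The symbol prss1 was not in the annotation, where a gene named try stood with prss1 as its later symbol in RefSeq, and ctrb1 stood only for a cluster shared with zgc:136461. Both were left out of the 8, and their clusters are described further on.

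The liver RNA came from 8 wild-type AB zebrafish, 1 array a fish. In each of 2 batches, 2 OF fish had been gavaged with oligo-fucoidan (OF), a sulfated polysaccharide of brown seaweed, over 1 month with 3 doses of 300 mg/kg in each week, and 2 control fish of the same batch had received no treatment (mock). Dosing began at 5 months of age, and the samples carry an age of 6 months. The fish carry a replicate number within each group, the sources used here do not give their sex, and the batches were run at different times. Each value is the log2 signal of a cluster, the group of array probes that stands for a transcript, so that a difference of 1 is 2-fold. Probes differ in brightness, so a gene's values were compared between arrays, and mean signal across genes served only to choose which genes of a list to name.

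Acinar cells store trypsins, elastases and carboxypeptidases as inactive precursors, and trypsin, once active in the gut, cuts the other precursors into active enzymes. Amylase and lipases are released with them and act on starch and on fat. Hepatocytes are not known as a source of the trypsins, elastases and carboxypeptidases. In the adult zebrafish the pancreas is not a compact gland but lies scattered in the fat and connective tissue along the intestine, next to the liver, and in several other teleosts acinar tissue lies inside the liver along its vessels. In a bulk sample of this kind, fewer acinar cells and less RNA per acinar cell cannot be told apart, nor can tissue inside the organ and tissue dissected with it.

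The label liver was borne out on all arrays. The median log2 signal of 22 hepatocyte markers lay between 11.57 and 12.54. They include tfa, which encodes transferrin, the iron carrier of plasma. Some arrays stood apart in other genes. The 8 estrogen-responsive genes measured, which include the egg yolk precursor vtg2, had medians of 9.66 to 12.64 on 5 arrays and of 2.24 to 2.36 on 3 arrays, namely OF replicate 2 of batch 2 and both controls of batch 1. The median of all clusters lay at 2.54 to 2.63 on the batch 2 arrays and at 2.11 to 2.13 on those of batch 1.

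Both trypsins were bright on 7 arrays and dim on 1. For prss59.1 (cluster 13032094), the log2 signal in batch 1 was 2.62 and 8.89 in OF fish, against 9.02 and 10.06 in control fish, and in batch 2 it was 10.28 and 9.43 in OF fish, against 10.44 and 10.79 in control fish. OF replicate 1 of batch 1 was low and the other 7 fish lay within 2 log2 units of each other, with both OF fish below both controls in each batch. For prss59.2 (13032100), the log2 signal in batch 1 was 3.67 and 9.93 in OF fish, against 9.62 and 11.53 in control fish, and in batch 2 it was 10.62 and 10.12 in OF fish, against 10.14 and 10.37 in control fish. The same fish was low and control replicate 2 of batch 1 was the highest of all 8, and the OF and control fish overlapped in both batches. The annotation placed both genes on chromosome 16, and they stand next to each other in the RefSeq gene table. Highest over lowest array, the signal differed 174-fold for prss59.1 and 232-fold for prss59.2 in batch 1, and 2.56-fold and 1.41-fold in batch 2. As neighbouring copies of a gene family they may share probe sequence, so that the signal of one may partly be that of the other, although the annotation flags neither cluster for cross-hybridisation.

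**Figure D1:**
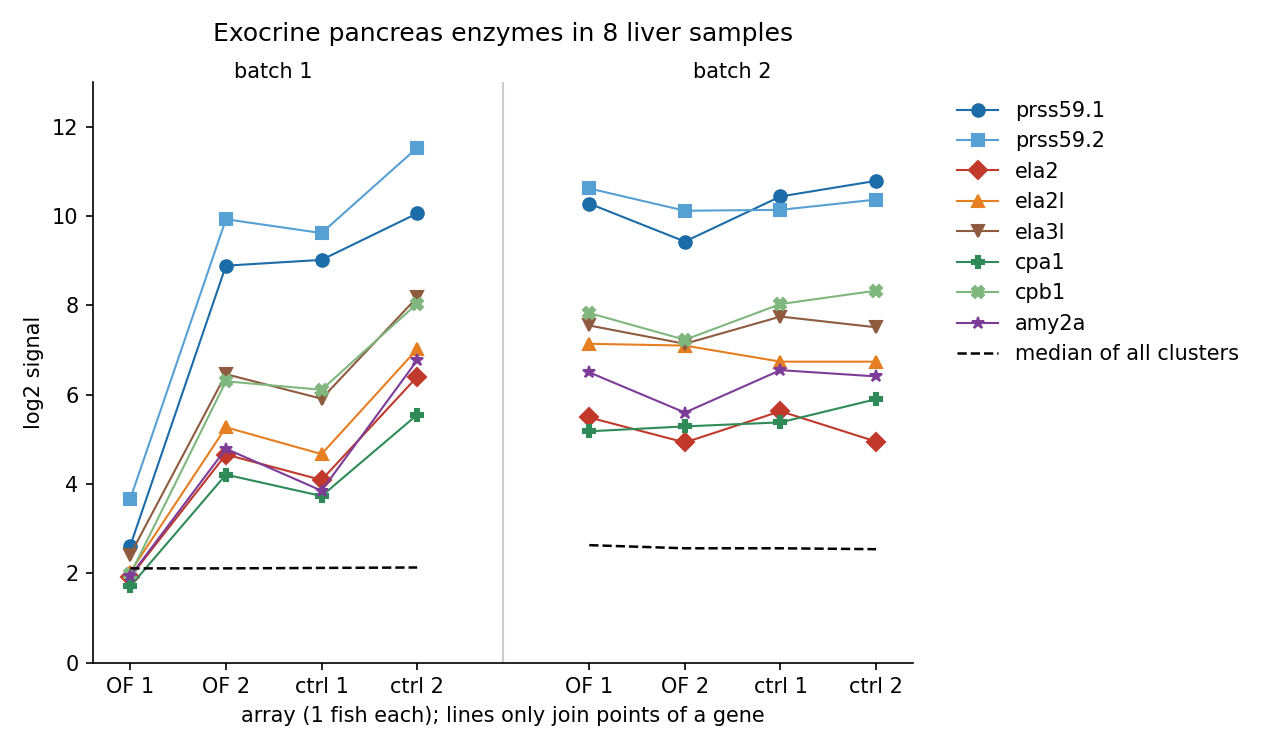
Log2 signal (y axis) of the 8 enzymes on each array, with the OF fish left of the control fish (ctrl) in each batch and the median of all clusters dashed. All 8 genes were lowest on OF replicate 1 of batch 1 and, within batch 1, highest on control replicate 2.

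The elastases, serine proteases that cut food protein, had the same order of fish in batch 1. For ela2 (13245106), the log2 signal in batch 1 was 1.92 and 4.66 in OF fish, against 4.09 and 6.40 in control fish, and in batch 2 it was 5.49 and 4.93 in OF fish, against 5.63 and 4.95 in control fish. The OF fish overlapped the control fish in batch 1, where OF replicate 2 was above control replicate 1. In batch 2 OF replicate 2 was the lowest of the 4 fish by a narrow margin, and the groups overlapped as well. For ela2l (13252654), which lies on chromosome 8 beside ela2 in the RefSeq gene table, the log2 signal in batch 1 was 2.03 and 5.27 in OF fish, against 4.67 and 7.02 in control fish, and in batch 2 it was 7.14 and 7.10 in OF fish, against 6.74 and 6.74 in control fish. It was the one enzyme of the 8 for which both OF fish of batch 2 were above both controls. For ela3l (13204435, chromosome 5), the log2 signal in batch 1 was 2.42 and 6.46 in OF fish, against 5.91 and 8.18 in control fish, and in batch 2 it was 7.55 and 7.14 in OF fish, against 7.75 and 7.51 in control fish. The groups overlapped in both batches. Highest over lowest fish, batch 2 spanned 1.62-fold for ela2, 1.32-fold for ela2l and 1.53-fold for ela3l, and batch 1 spanned 22.3-fold for ela2, 31.9-fold for ela2l and 54.1-fold for ela3l.

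The carboxypeptidases trim single residues off the ends of the peptides that the other proteases leave, cpa1 those with aromatic or aliphatic side chains and cpb1 the basic ones. For cpa1 (13161345, chromosome 25), the log2 signal in batch 1 was 1.71 and 4.21 in OF fish, against 3.73 and 5.55 in control fish, and in batch 2 it was 5.18 and 5.29 in OF fish, against 5.38 and 5.90 in control fish. Both OF fish of batch 2 were below both controls. For cpb1 (13148713, chromosome 24), the log2 signal in batch 1 was 1.98 and 6.30 in OF fish, against 6.11 and 8.04 in control fish, and in batch 2 it was 7.83 and 7.23 in OF fish, against 8.03 and 8.33 in control fish. Its OF fish were also below the controls in batch 2 and overlapped them in batch 1. For amy2a (13079824, chromosome 2), an amylase that cuts starch, the log2 signal in batch 1 was 1.94 and 4.79 in OF fish, against 3.85 and 6.77 in control fish, and in batch 2 it was 6.50 and 5.60 in OF fish, against 6.55 and 6.41 in control fish. OF replicate 2 was the lowest fish of batch 2 and OF replicate 1 lay between the controls. Across batch 1 the signal spanned 14.4-fold for cpa1, 66.9-fold for cpb1 and 28.5-fold for amy2a.

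The order of the fish in batch 1 was shared. OF replicate 1 was the lowest of the 4 fish, and of all 8, for 8 of 8 genes, and control replicate 2 was the highest of batch 1 for 8 of 8. OF replicate 2 was above control replicate 1 for 7 of 8, with prss59.1 the exception. OF replicate 1 was below every other fish of batch 1 by more than 2-fold for 8 of 8 genes, against 1.82% of all clusters, and control replicate 2 was above every other fish of batch 1 by more than 2-fold for 8 of 8, against 1.51% of all clusters. In batch 2 no order was shared by all 8 genes. The lowest fish was OF replicate 2 for 6 genes, OF replicate 1 for 1 and control replicate 2 for 1. The highest was control replicate 1 for 3, control replicate 2 for 3 and OF replicate 1 for 2. On OF replicate 1 of batch 1 the enzymes lay at the level of the middle of the array. There 7 of the 8 were under a log2 signal of 3, only 3 were above the median of all clusters, and the median enzyme was at the 46.6th percentile of the clusters of that array. On each of the other 7 arrays 8 of 8 were above the array's median, with the dimmest at the 73.7th percentile. Every fold against this fish is thus a fold against a signal near the middle of the array, and how much of that signal was background was not tested.

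The difference between the 2 fish of a group was therefore large in batch 1 and small in batch 2. Between the OF fish of batch 1, replicate 2 was above replicate 1 by 2.50 (cpa1) to 6.28 (prss59.1) on the log2 scale, a median of 12.5-fold, and 8 of 8 genes differed by more than 2-fold, against 5.03% of all clusters in that direction. Between the control fish of batch 1, replicate 2 was above replicate 1 by 1.04 (prss59.1) to 2.92 (amy2a), a median of 4.29-fold, and again 8 of 8 passed 2-fold, against 3.67% of all clusters. The ranking of genes was not the same in the 2 pairs, since prss59.1 had the largest difference between the OF fish and the smallest between the controls. In batch 2 the log2 differences ran from −0.91 (amy2a) to 0.11 (cpa1) between the OF fish and from −0.69 (ela2) to 0.52 (cpa1) between the controls, and 0 of 8 genes passed 2-fold in either pair, against 4.54% lower and 5.91% higher of all clusters between the OF fish and 3.07% lower and 4.31% higher between the controls. The median of all clusters differed by at most 0.05 within each of the 4 pairs, in values that had already been normalized.

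**Figure D2:**
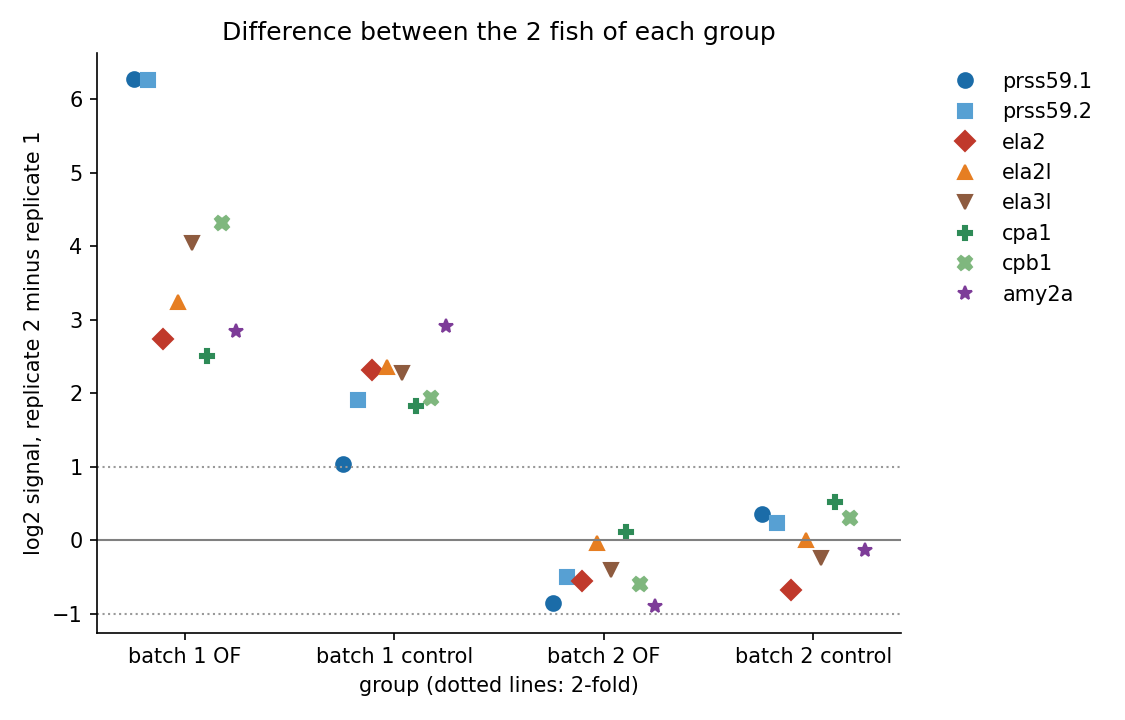
Difference in log2 signal between replicate 2 and replicate 1 (y axis) for the 8 enzymes in each group of 2 fish, with 2-fold dotted. All genes lie above 2-fold in both groups of batch 1 and within 2-fold in both groups of batch 2.

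The enzymes moved together across the fish. Over the 8 arrays Pearson's r between pairs of the 8 genes was 0.89 to 0.99 with a median of 0.96 (28 pairs). The points share arrays and the low fish weighs heavily in them. Without OF replicate 1 of batch 1 the r of the same 28 pairs was 0.50 to 0.98 with a median of 0.87, and the lowest was that of prss59.1 with prss59.2. These are descriptions of 8 and 7 arrays.

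The study asked what OF changes in the liver, and for the enzymes no change passed the test. Over both batches, with batch as a term in limma, all 8 enzymes had a negative change, with a median of −1.32 on the log2 scale, against −0.00 over all clusters. None passed a 2-fold change with an unadjusted p under 0.05, a rule that 0.474% of all clusters passed as lower with OF, and 0 of 8 had an unadjusted p under 0.05, against 4.49% of all clusters in either direction. By fold alone 7 of 8 were more than 2-fold lower, against 1.18% of all clusters. The change of prss59.1 was −2.27 (SE 1.35, 95% interval −5.46 to 0.91) and that of prss59.2 was −1.83 (SE 1.45, −5.25 to 1.59). The nearest to the threshold was cpb1 at −1.79 (SE 1.01, −4.18 to 0.59), and the farthest was ela2l at −0.91 (SE 0.91, −3.05 to 1.24). The unadjusted limma p-values ran from 0.118 (cpb1) to 0.35 (ela2l), and the adjusted p of limma (Benjamini-Hochberg over all 59300 clusters) was 0.955 for each of the 8. The median change was −0.41 without OF replicate 1 of batch 1, −1.82 without OF replicate 2 of batch 1 and −0.65 without control replicate 2 of batch 1, and prss59.1 was the only call in any of these, at −3.22 without OF replicate 2 (limma adjusted p = 0.958), where 0.484% of all clusters were called lower.

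Within batch 1 the enzymes averaged lower in the OF fish, and for each gene the 2 OF fish differed more from each other than their mean did from that of the controls. The mean log2 signal of prss59.1 was 5.75 ± 4.44 in OF fish and 9.54 ± 0.73 in control fish (SD, n = 2 each), that of cpb1 was 4.14 ± 3.06 in OF fish and 7.08 ± 1.37 in control fish, and that of amy2a was 3.36 ± 2.01 in OF fish and 5.31 ± 2.06 in control fish. The changes were −3.79 (prss59.1) to −1.68 (cpa1) with a median of −2.40, against −0.03 over all clusters, and 8 of 8 were more than 2-fold lower by fold alone, against 5.2% of all clusters. None had an unadjusted limma p under 0.05 (0.158 for cpb1 to 0.253 for amy2a, adjusted p from 0.652 to 0.728), against 10.6% of all clusters in either direction, and 3.47% of all clusters were called lower by fold and p. Only prss59.1 had both OF fish below both controls, against 23.9% of all clusters in that direction, and no enzyme had both above, against 18.5%. The value turned on 1 fish at a time. Without OF replicate 1 the median change was −0.59 and 0 of 8 were called, and without OF replicate 2 it was −4.22 and 6 of 8 were called, against 5.1% of all clusters, with the lowest adjusted p at 0.0604 for prss59.1. Without control replicate 2 it was −1.24 and without control replicate 1 it was −3.57, with 0 called in both. In each of these fits the lone fish of a group was assumed to vary like the fish of the other group.

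Within batch 2 the 2 fish of a group lay closer together. The changes were −0.76 (prss59.1), −0.65 (cpb1), −0.43 (amy2a), −0.40 (cpa1), −0.29 (ela3l), −0.08 (ela2), 0.12 (prss59.2) and 0.38 (ela2l), with a median of −0.35, against 0.03 over all clusters. None passed 2-fold, against 4.28% of all clusters as lower and 4.26% as higher, none was called by fold and p, against 3.12% as lower and 2.55% as higher, and none had an unadjusted limma p under 0.05 (0.0845 for cpb1 to 0.837 for ela2, adjusted p from 0.601 to 0.98), against 9.74% in either direction. The 95% interval was −1.73 to 0.21 for prss59.1, −0.59 to 0.83 for prss59.2 and −0.13 to 0.89 for ela2l. For 5 of 8 genes, prss59.1, ela2, cpa1, cpb1 and amy2a, the interval reached past 2-fold lower, and for 0 of 8 past 2-fold higher. The OF and control fish did not overlap for 4 genes. These were prss59.1, cpa1 and cpb1 with OF lower, against 17.8% of all clusters, and ela2l with OF higher, against 21.0%. Without OF replicate 1 prss59.1 alone was called, at −1.18 (limma adjusted p = 0.286), where 4.03% of all clusters were called lower, and without OF replicate 2 the median was −0.03. The changes of the hepatocyte markers mostly had 1 sign in each batch. In batch 2 the change was positive for 22 of 22 with a median of 0.43, and 2 were called higher, against 2.55% of all clusters. Between the OF fish of batch 2, these markers were higher in replicate 2 by a median of 0.54. In batch 1 the change was negative for 19 of 22 with a median of −0.37, and 3 were called lower, against 3.47% of all clusters. Erythrocyte genes, of which 10 were measured, had a negative change in batch 1 for 10 of 10 (median −1.75). Of these, 6 were called lower, against 3.47% of all clusters. In batch 2 their change was positive for 10 of 10 (median 1.52), and 5 were called higher, against 2.55% of all clusters. Their medians by fish were 3.05 and 2.49 in OF fish of batch 1, against 6.22 and 4.49 in control fish, and 4.95 and 6.12 in OF fish of batch 2, against 4.14 and 3.77 in control fish. OF replicate 1 of batch 1 was not the lowest and control replicate 2 not the highest, so these genes did not have the enzymes' order of fish. For the estrogen-responsive genes the change in batch 1 was positive for 8 of 8, with a median of 7.58. In batch 2, where only OF replicate 2 was low, it was negative for 8 of 8, with a median of −4.94. In batch 1 both OF fish were high in these genes (medians 9.66 and 11.75) and both controls low (2.35 and 2.36). There, OF and this state of the fish cannot be told apart. The part of any of these lists in the enzymes' values was not tested.

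**Figure D3:**
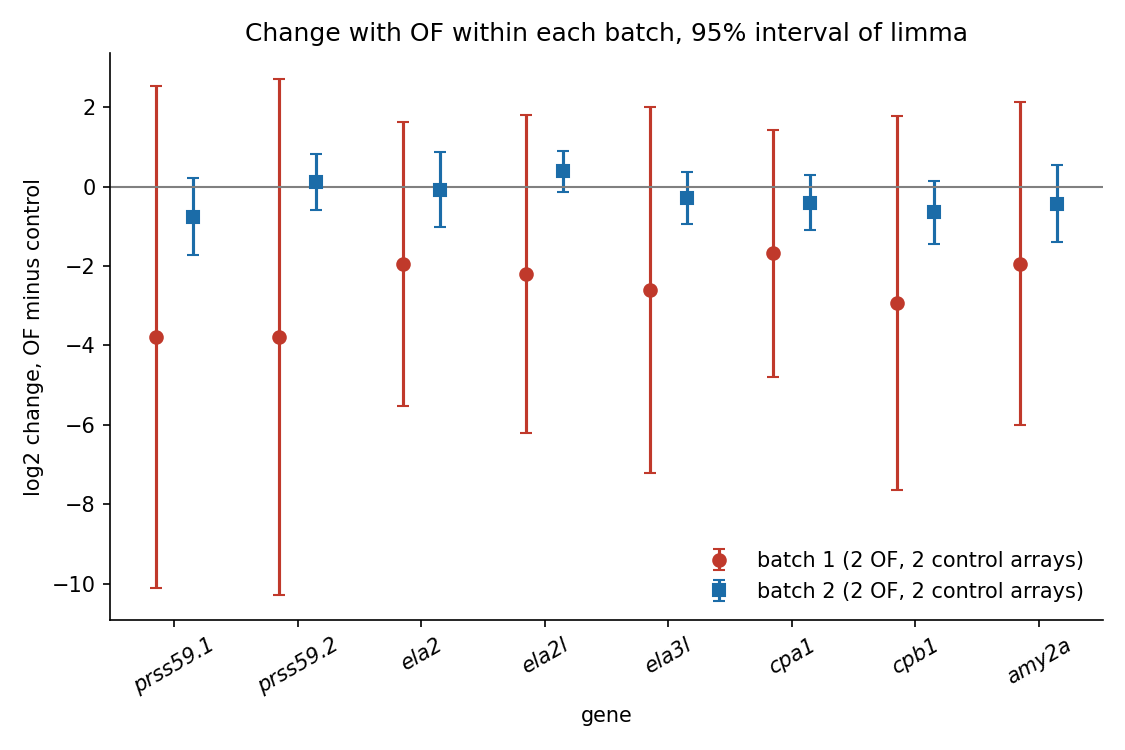
Log2 change of each enzyme, OF minus control (y axis), within batch 1 and within batch 2, with bars for limma's 95% interval (2 OF and 2 control arrays in each batch). Every interval includes 0, and those of batch 1 are several times wider than those of batch 2.

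The OF change of batch 2 minus that of batch 1 was positive for 8 of 8 enzymes, 1.28 (cpa1) to 3.90 (prss59.2), with a median of 2.30, against 0.05 over all clusters. None passed fold and p (limma interaction p from 0.159 for ela2l to 0.399 for amy2a, adjusted p from 0.555 to 0.765), while 6.42% of all clusters did in that direction and 14.3% had an unadjusted p under 0.05 in either direction, and by fold alone 8 of 8 passed, against 11.2%. So a difference in the OF change between the batches was not shown for any of the 8, and the interval for prss59.2 ran from −2.44 to 10.24. Without OF replicate 1 of batch 1 the median difference was 0.21, and without OF replicate 2 of batch 1 it was 4.27 with 7 of 8 called, all but amy2a, against 7.04% of all clusters. It was 1.25 without control replicate 2 of batch 1. The difference of the erythrocyte genes was positive for 10 of 10 with a median of 3.21. Of these, 9 were called, against 6.42% of all clusters. That of the estrogen-responsive genes was negative for 8 of 8 with a median of −12.33. The part of either list was not tested.

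Batch 2 fish were above batch 1 fish in all 8 enzymes, by 0.98 (ela2) to 2.59 (prss59.1) with a median of 1.84, where all clusters had a median of 0.35. With arrays centred on their medians the enzymes' median was 1.38, and with quantile normalization it was 1.02, with ela2 at 0.097. By fold and unadjusted p, cpa1 was higher in batch 2 (1.63, SE 0.65, limma adjusted p = 0.108), and so was ela2l (2.18, SE 0.91, limma adjusted p = 0.121). These were 2 of 8, against 19.7% of all clusters, a share close to that of all clusters. By fold alone 7 of 8 passed, against 21.7% of all clusters, and by adjusted p 0 of 8 did, against 26.6%. Without OF replicate 1 of batch 1 the median was 1.02, and without control replicate 2 of batch 1 it was 2.55 with 6 of 8 called, against 19.5% of all clusters. The median was 2.42 without OF replicate 2 of batch 1 and 1.58 without control replicate 1 of batch 1. Leaving out a batch 2 fish gave 1.56 to 2.07.

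The 2 clusters left out by symbol were also lowest and highest on the same fish of batch 1. The trypsin gene try had a log2 signal in batch 1 of 2.90 and 7.05 in OF fish, against 6.96 and 8.75 in control fish, and in batch 2 of 8.07 and 7.42 in OF fish, against 8.07 and 8.30 in control fish. The cluster shared by the chymotrypsinogen ctrb1 and zgc:136461 had 2.14 and 4.08 in OF fish of batch 1, against 4.90 and 6.52 in control fish, and in batch 2 it had 5.34 and 4.81 in OF fish, against 5.05 and 4.73 in control fish. Both were lowest on OF replicate 1 of batch 1 and, within batch 1, highest on control replicate 2. OF replicate 2 was above control replicate 1 for try but not for the shared cluster. In that cluster both OF fish of batch 1 were below both controls.

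A wider list of acinar enzymes and secreted proteins was measured with 27 of its 33 genes. The medians over these genes were 2.00 and 2.65 in OF fish of batch 1, against 2.73 and 4.41 in control fish, and 4.20 and 3.64 in OF fish of batch 2, against 4.32 and 3.63 in control fish. OF replicate 1 was again the lowest and control replicate 2 the highest of all 8. Within batch 1 OF replicate 1 was the lowest fish for 19 of 27 genes, control replicate 2 the highest for 22, and both held for 18 (66.7%), against 12.5% of all clusters. The trypsin-like prss60.1, prss60.2 and prss60.3 were under the array's median on all 8 arrays, at 1.19 to 1.84. Of the 4 with the highest mean signal, 3 were lowest on OF replicate 1 and highest on control replicate 2 within batch 1. The elastase cela1.6 had a log2 signal of 2.48 and 7.23 in OF fish of batch 1, against 6.88 and 8.80 in control fish, the carboxypeptidase cpa5 had 3.97 and 7.12 in OF fish, against 6.94 and 9.14 in control fish, and cel.1, a carboxyl ester lipase that splits dietary fat esters, had 3.02 and 5.37 in OF fish, against 5.66 and 7.96 in control fish. Of these, cel.1 had OF replicate 2 below control replicate 1. The amylase-like amy2al1 differed from all of them, with 8.51 and 9.15 in OF fish of batch 1, against 8.27 and 8.16 in control fish, and in batch 2 it had 11.21 and 9.97 in OF fish, against 10.34 and 10.45 in control fish. Its change with OF was positive (0.40 over both batches, limma adjusted p = 0.955). It was higher in batch 2 than in batch 1 by 1.97 (limma adjusted p = 0.00504), where 26.6% of all clusters had an adjusted p under 0.05. These values are of the brighter of its 2 clusters.

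Of the 27 genes, 23 had a negative and 4 a positive change with OF over both batches, with a median of −0.55 against −0.00 over all clusters. By fold and unadjusted p, 2 of 27 were lower and 0 were higher, against 0.474% and 0.54% of all clusters. These were cel.2, a second carboxyl ester lipase gene (−2.33, limma adjusted p = 0.955), and zgc:92590 (−1.77, limma adjusted p = 0.955), both named after their values were seen. The log2 signal of cel.2 in batch 1 was 2.19 and 3.13 in OF fish, against 5.43 and 7.47 in control fish, and in batch 2 it was 6.03 and 4.92 in OF fish, against 7.40 and 5.29 in control fish. The groups were apart in batch 1 and overlapped in batch 2. Within batch 1 the median change of the list was −0.91, against −0.03 over all clusters, and 3 of 27 were called lower, against 3.47% of all clusters, namely cel.2, zgc:92590 and the Kazal-type protease inhibitor spink4. Within batch 2 the median was −0.10, against 0.03 over all clusters, and 0 were called, against 3.12% of all clusters as lower and 2.55% as higher.

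Of the list of acinar transcription and secretory pathway factors, 7 of 8 were measured, and 1 of 7 was lowest on OF replicate 1 and highest on control replicate 2 in batch 1 (14.3%, against 12.5% of all clusters). The log2 signal of ptf1a, a transcription factor that drives acinar enzyme genes in mouse, was 1.47 and 1.55 in OF fish of batch 1, against 1.67 and 1.76 in control fish, and 1.69 and 1.50 in OF fish of batch 2, against 1.81 and 1.42 in control fish. All 8 values were under the median of the array they came from. Its partner rbpjl had 1.42 and 2.62 in OF fish of batch 1, against 1.89 and 2.53 in control fish, and 1.97 and 1.83 in OF fish of batch 2, against 2.22 and 1.51 in control fish. It was above the array median in OF replicate 2 and control replicate 2 of batch 1 only. The gene bhlha15, a factor of secretory cells known as Mist1 in mouse, had 4.59 and 4.04 in OF fish of batch 1, against 2.62 and 2.44 in control fish, and 6.77 and 4.04 in OF fish of batch 2, against 7.33 and 6.55 in control fish. It was called higher with OF in batch 1 (1.78, limma adjusted p = 0.219), where 10.6% of all clusters had an unadjusted p under 0.05 in either direction. It was also called higher in batch 2 than in batch 1 (2.75, limma adjusted p = 0.0503), against 19.7% of all clusters. Within each batch it was lowest on the fish that were low in the estrogen-responsive genes. Its order of fish was not that of the enzymes. The factors nr5a2, at 7.24 to 8.67, and gata6, at 6.63 to 9.34, are also expressed by liver.

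Markers of other tissues that could be dissected with acinar tissue were counted in the same way. In batch 1, OF replicate 1 was the lowest and control replicate 2 the highest fish for 1 of 17 endocrine pancreas genes (5.88%), 6 of 22 intestine genes (27.3%), 2 of 13 bile duct genes (15.4%), 5 of 22 hepatocyte genes (22.7%) and 0 of 10 erythrocyte genes, against 12.5% of all clusters. OF replicate 1 alone was the lowest for 6 of 17 endocrine, 13 of 22 intestine, 9 of 13 bile duct, 10 of 22 hepatocyte and 1 of 10 erythrocyte genes, against 31.0% of all clusters. By rank, that fish was the lowest more often than among all clusters in the intestine, bile duct and hepatocyte lists. Its share was close to that of all clusters in the endocrine list and smaller in the erythrocyte list. A rank does not give the size of a gap, and the list medians of that fish were mixed. Within batch 1 its intestine median was the lowest (1.72) and its bile duct median the highest (5.05). Its hepatocyte median (11.62) was above that of OF replicate 2 (11.57). None of the 17 endocrine pancreas genes was over a log2 signal of 5 on any array. The gene ins, which encodes insulin, was at 1.74 and 3.09 in OF fish of batch 1, against 2.00 and 2.04 in control fish, and at 3.09 and 3.39 in OF fish of batch 2, against 3.94 and 3.13 in control fish. The highest single value was 4.64, for the somatostatin gene sst2 in OF replicate 2 of batch 1. Of the intestine list 22 of 24 genes were measured, and the medians of the endocrine and intestine lists lay between 1.72 and 2.28 on all arrays. Among the intestine genes, vil1, which encodes villin of the brush border, was at 1.68 and 2.05 in OF fish of batch 1, against 2.08 and 2.11 in control fish, and at 2.53 and 1.92 in OF fish of batch 2, against 2.15 and 1.74 in control fish. The membrane protein gene tm4sf5 was at 6.13 and 6.44 in OF fish of batch 1, against 6.83 and 6.92 in control fish. Both were lowest on OF replicate 1 and highest on control replicate 2 of batch 1, over less than 2-fold. The gene anpepb was at 1.78 and 3.58 in OF fish of batch 1, against 3.69 and 2.54 in control fish. The gene slc5a1 was at 2.67 and 3.43 in OF fish of batch 1, against 3.70 and 3.65 in control fish. These genes were also lowest on OF replicate 1, but neither was highest on control replicate 2. The batch 1 values of vil1 were each under the median of the array they came from. The intestinal fatty acid binding protein fabp2 was at 5.74 and 3.26 in OF fish of batch 1, against 4.33 and 5.46 in control fish, which is not the enzymes' order. The bile duct list had medians of 5.05 and 4.90 in OF fish of batch 1, against 4.45 and 4.91 in control fish, and its keratin gene krt4 was at 3.21 and 4.90 in OF fish, against 5.26 and 4.91 in control fish. Low values of krt4, anxa4 and krt18a.1 on OF replicate 1 went with values on control replicate 2 that were not the highest of the batch. While 9 of 13 bile duct genes were lowest on OF replicate 1, epcam and sox9b were not. There epcam was highest, at 5.05 and 4.10 in OF fish of batch 1, against 3.27 and 3.54 in control fish. On the same fish sox9b, at 5.13, was above both controls, at 4.45 and 5.02. Hepatocyte markers had medians of 11.62 and 11.57 in OF fish of batch 1, against 12.18 and 12.29 in control fish, and of 12.07 and 12.54 in OF fish of batch 2, against 11.89 and 11.79 in control fish. Control replicate 2 of batch 1 had the highest hepatocyte median of its batch, at 12.29, and was also the highest of its batch in the enzymes. The share of any of these tissues in the samples was not estimated.

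**Figure D4:**
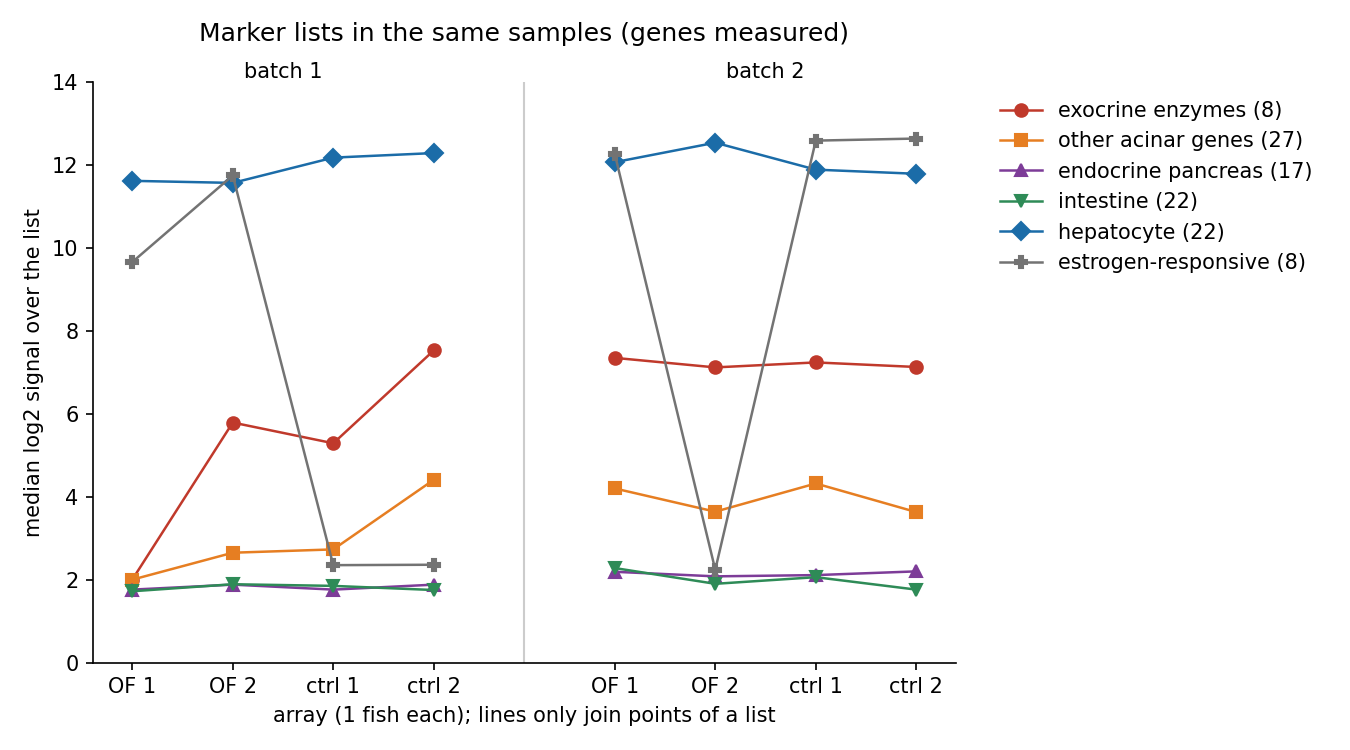
Median log2 signal (y axis) of 6 gene lists on each array, with the number of genes measured in brackets and the OF fish left of the control fish (ctrl). The 8 enzymes and the 27 other acinar genes are lowest on OF replicate 1 of batch 1, the endocrine and intestine lists stay between 1.72 and 2.28, and the estrogen-responsive list splits the fish in another way.

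The genes whose pattern over the 8 arrays was most like the mean of the 8 enzymes included other acinar genes and genes of neither acinar list. Among 7463 other genes with a mean log2 signal over 5, 39 had a Pearson r over 0.9 with that mean. The first was the elastase cela1.6 (r = 0.99 over 8 arrays, 0.95 without OF replicate 1 of batch 1) and the second was the trypsin try (0.99 and 0.95). Next came si:ch211-240l19.8, for which the files give no fuller name (0.98 and 0.87), with a log2 signal of 2.13 and 5.97 in OF fish of batch 1, against 7.09 and 8.64 in control fish. The lipase cel.1 (0.97 and 0.94) and the carboxypeptidase cpa5 (0.96 and 0.81) were among the first 8, as were aamp, pex7 and LOC101884692 at 0.96 to 0.97. Of the 20 nearest genes 4 were in the wider acinar list, 12 spanned more than 2 log2 units, and 3 kept an r over 0.9 without OF replicate 1 of batch 1, namely cela1.6, try and cel.1. For the other genes of the 20, which include the liver-expressed asgr1a and mst1, r without that fish was 0.61 to 0.87.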

How the data were processed

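The arrays were ZebGene 1.1 ST arrays of liver RNA. The authors ran GC count normalization and signal space transformation in the Transcriptome Analysis Console. Their deposited table gives the log2 signal of 75212 clusters, of which 59300 stand in their worksheets and are no controls. The worksheets also hold, per the file headers, group averages and the authors' own fold and p-value columns, which were not used. For the clusters' positions, the sources used here name no genome build, so none were printed. Names came from the files (24582 clusters) or, through accessions, from a RefSeq table of GRCz12tu (5643).

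All clusters entered limma fits (version 3.58.1, R 4.3.3) with an additive batch term, in each batch alone, and with a batch by OF interaction. A call needs a fold over 2 and an unadjusted p under 0.05, the thresholds of the methods, and adjusted p-values are Benjamini-Hochberg values. The fits were tested on simulated data in which clusters varied independently and no lone fish was shifted for a set of genes. That test therefore does not cover a fish that is low in all 8 enzymes. The 8 arrays, 2 per group and batch, limit the precision. The brightest cluster stands for a gene. Genes were named if they were on the list of 10, among the 4 brightest of another list or among the 20 most like the enzymes' mean, and others are named where a count or an exception calls for it, after their values were seen. The genes and lists were chosen with earlier results of these data known.

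Alternatives were a replicate block, no batch term, quantile normalization, median centring, a filter on dim clusters (over 5 on 2 arrays), limma-trend, adjusted p, fold alone and leaving out each fish.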

Additional observations from a re-analysis of the deposited data

Results flagged for a closer look

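In 4 sets of 4 arrays, 1 array stood far from the rest by Dixon's ratio of gap to range (95% critical value), out of 16 sets looked at (each of the 8 enzymes in the OF fish and in the control fish of both batches). Chance flags about 1 in 20 sets of independent values, but the sets here share the same 8 fish and the enzymes followed each other, so the 4 are not separate events. For prss59.2, OF replicate 1 of batch 1 was low among the 4 OF fish at a log2 signal of 3.67 (ratio 0.9). Among the 4 control fish, the same fish was far from the rest 3 times, where control replicate 1 of batch 1 was low for ela2l at 4.67 (0.88), for cpb1 at 6.11 (0.867) and for amy2a at 3.85 (0.878). Both batches enter each set, so a batch difference is part of the gap.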

How the results depend on the processing

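The OF changes of the enzymes kept their direction, and the count of 0 called, under quantile normalization, median centring, limma-trend and the filter on dim clusters, over both batches and in each batch, and without a batch term over both. Fold alone, without a p, gave 7 enzymes over both batches, against 1.18% of all clusters, and 8 in batch 1, against 5.2%. For the difference between batches it gave 8, against 11.2%, and for batch 2 against batch 1 it gave 7, against 21.7%. For batch 2 against batch 1 the count was 2, against 19.7% of all clusters, and 0 with adjusted p, against 26.6%. It became 0 with quantile normalization and with median centring, and 4 with the dim filter and with limma-trend. The share of all clusters called under these last 4 settings is not given here, so nothing is concluded from their counts. The cause of these moves was not tested. The r of same-numbered deviations over all clusters was 0.113 in batch 1 and −0.0727 in batch 2. Each batch gives only the r of its OF fish with its control fish, so whether replicate numbers pair the fish cannot be settled. A fit with the replicate number as a block called 3 enzymes lower (cpa1, cpb1 and amy2a, adjusted p = 0.983), against 0.432% of all clusters.

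Leaving out 1 fish moved the median change between −1.82 and −0.41 over both batches (0 to 1 called), −4.22 and −0.59 in batch 1 (0 to 6), −0.43 and −0.0305 in batch 2 (0 to 1), 0.21 and 4.27 for the difference between batches (0 to 7) and 1.02 and 2.55 for batch 2 against batch 1 (0 to 6). Single genes changed sign. Without OF replicate 1 of batch 1 these were prss59.1 in the difference between batches (−0.11, and up to 6.17 without another fish) and prss59.2 in batch 2 against batch 1 (−0.0152, up to 2.49). Within batch 2 they were prss59.2 without OF replicate 1 (−0.13, up to 0.37), amy2a (0.0215, down to −0.89) and ela2 (0.20) without OF replicate 2, and ela2 without control replicate 1 (0.27, down to −0.42). The mean over all clusters of a gene was not run, since each enzyme had 1 cluster. With 2 fish a group, signals near the middle of the array on OF replicate 1 of batch 1 limit every fold against it.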

Other observations

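The wider acinar genes also differed between the 2 fish of a group in batch 1. Between the OF fish 8 of 27 were more than 2-fold higher in replicate 2, against 5.03% of all clusters, and 0 were lower. Between the control fish 13 of 27 were higher in replicate 2, against 3.67% of all clusters, and 0 were lower. In batch 2, 0 were higher and 3 lower between the OF fish, against 5.91% and 4.54% of all clusters, and 1 was higher and 4 lower between the control fish, against 4.31% and 3.07%. Among the 17 endocrine pancreas genes the counts in batch 1 were 3 higher, against 5.03% of all clusters, and 0 lower between the OF fish, and 0 either way between the control fish.

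Genes of the chitinase family on the intestine list, chia.1, chia.2 and chia.3, were bright in 1 fish only, chosen after their values were seen. In OF replicate 1 of batch 2 they were at 5.99, 4.07 and 5.04 on the log2 scale, and on the other 7 arrays chia.1 was at 1.73 to 2.05, chia.2 at 1.24 to 2.27 and chia.3 at 1.75 to 2.58. The enzymes of that fish were within 2-fold of those of OF replicate 2 of the same batch.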
